A study of Mus musculus with 15 samples.

Results

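The 10 genes described here encode the mouse pathway that loads peptides onto major histocompatibility complex (MHC) class II molecules. They were taken by symbol from a table of 20089 genes, and all 10 were found in it. They are the classical chains H2-Aa, H2-Ab1 and H2-Eb1, the invariant chain Cd74, the peptide exchange genes H2-DMa, H2-DMb1 and H2-DMb2, the DO subunit gene H2-Oa, the transactivator Ciita and the thiol reductase Ifi30. RNA was sequenced from mouse bone marrow-derived macrophages (BMDMs), which are macrophage precursors grown from marrow of wild-type mice. All 15 samples had macrophage colony-stimulating factor (M-CSF), and the control samples had nothing else. The other groups also had receptor activator of NF-κB ligand (RANKL), the signal for osteoclast formation, or lipopolysaccharide (LPS), a bacterial inflammatory stimulus, for 4 h or 3 d, with 3 samples in each of the 5 groups. Age and strain are not in the labels, which also leave out the time in culture of the controls, so time and stimulus cannot be told apart. It is not stated whether a replicate number marks 1 animal. Nothing says that the 3 samples of a group came from separate animals or cultures, and p-values therefore measure only the spread between these samples, which may be technical.

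MHC class II molecules are pairs of an alpha and a beta chain that show peptides from taken-up material to CD4+ T cells. In the endoplasmic reticulum the pair binds the invariant chain, which fills the groove and steers the complex to late endosomes. There proteases trim the invariant chain, IFI30 reduces disulfide bonds of antigens, and the DM heterodimer exchanges the remaining fragment for peptide, a step that the DO heterodimer restrains. CIITA does not bind DNA itself and is recruited by regulatory factor X (RFX), nuclear factor Y (NF-Y) and CREB to the paired X and Y boxes of class II promoters. Dendritic cells and B cells hold these molecules at high levels, and macrophages raise them under interferon gamma.

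Promoter sequences are shown because CIITA acts through letters that several of these genes share. RefSeq promoters (build GRCm38.p6, from 250 bases before to 50 after a start site) were matched for 7 of the 10 genes, in 8 records, and H2-Ab1, Ciita and Cd74 had no entry in the table used. The Y box was searched as ATTGG, which reads CCAAT on the other strand, and the X box core as AGNNACNGA, both on either strand and with overlaps allowed. Of the 7 genes, 6 held ATTGG on the strand of the gene, compared with 22.07% of 32851 promoters of the same length. The segments below run 5′ to 3′ on the strand of the gene from 60 bases before to 15 bases after ATTGG. Capitals mark ATTGG and any X box core on that strand within the segment.
H2-Aa: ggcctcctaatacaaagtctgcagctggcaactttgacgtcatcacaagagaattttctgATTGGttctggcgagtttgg
H2-Eb1: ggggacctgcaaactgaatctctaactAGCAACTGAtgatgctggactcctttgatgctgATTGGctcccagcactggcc
H2-DMb1: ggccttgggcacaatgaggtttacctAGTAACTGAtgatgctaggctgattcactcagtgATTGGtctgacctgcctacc
H2-DMb2: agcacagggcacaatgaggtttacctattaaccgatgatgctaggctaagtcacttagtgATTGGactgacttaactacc
H2-Oa: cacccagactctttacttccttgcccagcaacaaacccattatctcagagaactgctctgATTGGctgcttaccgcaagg

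These segments lie at chr17:34287852-34287931 on the minus strand for H2-Aa, and on the plus strand at chr17:34305748-34305827 for H2-Eb1, chr17:34153070-34153149 for H2-DMb1, chr17:34145099-34145178 for H2-DMb2 and chr17:34092276-34092355 for H2-Oa. ATTGG began 48 bases before the start site of H2-Aa, 59 before that of H2-Eb1, 61 for H2-DMb1, 90 for H2-DMb2 and 43 for H2-Oa. The X box core preceded ATTGG by 33 bases in H2-Eb1 and by 34 bases in H2-DMb1. The 2 together in this order and within 10 to 50 bases were found in 0.52% of all promoters, whereas AGNNACNGA alone was found in 17.73% and ATTGG on either strand in 37.41%. The segments of H2-DMb1 and H2-DMb2 were identical at 67 of 80 positions, and those of the other pairs at 19 to 33 positions. In H2-Oa an X box core lay 98 bases before ATTGG, outside the printed segment, and 2 matches lay on the other strand. In H2-DMa, ATTGG lay 198 bases before the start site in 1 of 2 records, and in Ifi30 neither motif was found. A match describes letters only and says nothing of binding in these cells.

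In the GENCODE M21 annotation of GRCm38, 7 of the genes lie on chromosome 17 between 34092340 and 34316674, from H2-Oa to H2-Eb1. Ciita lies on chromosome 16 from 10480059 to 10528418 and Ifi30 on chromosome 8 from 70762774 to 70766663. H2-DMa overlaps Brd2 on the opposite strand, H2-Oa, H2-Eb1 and Ifi30 each overlap a transcript on the opposite strand, and Ciita overlaps Dexi. Whether reads were assigned by strand is not stated, so the values of these genes may hold reads of their neighbors. H2-DMb1 and H2-DMb2 are close copies whose reads may have been split between them, and their values are uncertain in that respect.

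The deposited values are FPKM, a level scaled to transcript length and sequencing depth. The samples held 18306184 to 20330207 fragments on listed genes. All 8 macrophage genes checked, such as Csf1r, Cd68 and Adgre1, had a mean of at least 1 FPKM in every group, but so had 8 neutrophil genes, whose summed control level of 4759 to 14200 FPKM overlapped the 7360 to 9075 FPKM of the macrophage genes. These values therefore do not tell macrophages from a mixture with neutrophils. Replicate 3 of LPS 3 d stood apart from the other libraries of its group in other genes, with 435 FPKM summed over 8 stromal genes against 74.1 and 77.9. It also did so in H2-DMb2, with 41 fragments against 13 and 13. The stimuli left their marks, since 9 of 10 osteoclast genes rose in RANKL 3 d and all 10 tested LPS response genes rose in LPS 4 h. In bulk RNA, fewer cells of a type and less RNA per cell cannot be told apart.

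In control BMDMs, Ifi30 and Cd74 had the highest levels of the 10 genes and Ciita the lowest. The mean was 300.2 FPKM ± 28.9 (SD, n = 3) for Ifi30 and 183 ± 125 for Cd74, which lies on chromosome 18 from 60803848 to 60812652. H2-Aa followed with 62.4 ± 48.6, H2-Ab1 with 61.6 ± 46.2, H2-DMb1 with 33.3 ± 8.46 and H2-Eb1 with 28.0 ± 21.3. The ranges of neighbors in this order overlapped. H2-DMa came next with 7.42 ± 2.78, followed by H2-DMb2 with 2.73 ± 0.549, H2-Oa with 1.96 ± 0.497 and Ciita with 0.387 ± 0.146. The control ranges of H2-Eb1 and H2-DMa overlapped, as did those of H2-DMb2 and H2-Oa. The range of H2-DMa lay wholly above that of H2-DMb2, and that of H2-Oa wholly above that of Ciita. H2-DMa and Ciita are listed under predicted transcripts. The 673 to 1523 control fragments of H2-DMa gave a lower FPKM than the 625 to 1135 of H2-DMb1. Since FPKM is scaled to length, a longer transcript length was used for H2-DMa, and whether that length is right was not tested. Ciita rested on 38 to 87 fragments per control library.

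The classical chains and Cd74 differed several-fold between control libraries that carry the same label. H2-Aa, the only classical alpha chain gene tested, stood at 113, 57.8 and 16.3 FPKM in control replicates 1, 2 and 3. H2-Ab1, its partner in the I-A molecule, stood at 110, 57.4 and 17.6. H2-Eb1, the beta chain of I-E, had 49.96, 26.4 and 7.55. Replicate 1 was thus 6.96 times replicate 3 for H2-Aa, 6.22 times for H2-Ab1 and 6.62 times for H2-Eb1. Cd74 spread in the same order of libraries, with 315, 168 and 66.3 FPKM.

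The SD of H2-Aa within control, 1.42 on the log2(FPKM + 0.1) scale, was larger than that of 99.5% of the 11743 genes tested, whose median was 0.207. Over all 5 groups the SD of H2-Aa, H2-Ab1, H2-Eb1 and Cd74 was larger than that of 99.0% to 99.7% of genes. Not every member behaved so. H2-DMb1, with 0.279, and Ifi30, with 0.263, lay close to the all-gene median of 0.260, and H2-DMa was between them and the classical chains with 0.502. H2-DMb2 and H2-Oa had SDs of 0.940 and 0.842, on few fragments.

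**Figure D1:**
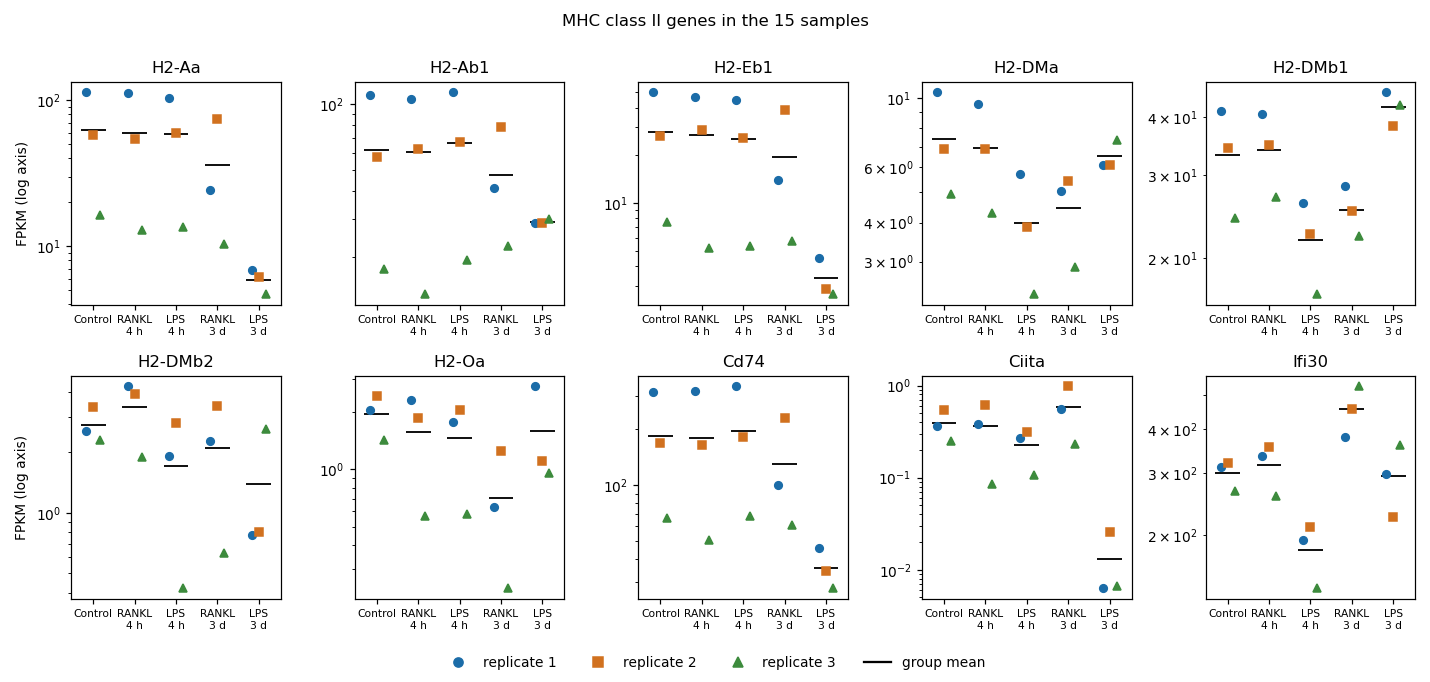
FPKM of each gene (vertical axis, log scale) in the 5 groups (horizontal axis). Points are the 3 samples of a group, with shape and color giving the replicate number, and bars are group means. H2-Aa, H2-Ab1, H2-Eb1 and Cd74 keep the order of replicates 1, 2 and 3 in control and at 4 h, from 113 down to 16.3 FPKM for H2-Aa in control, and draw together in LPS 3 d.

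**Figure D2:**
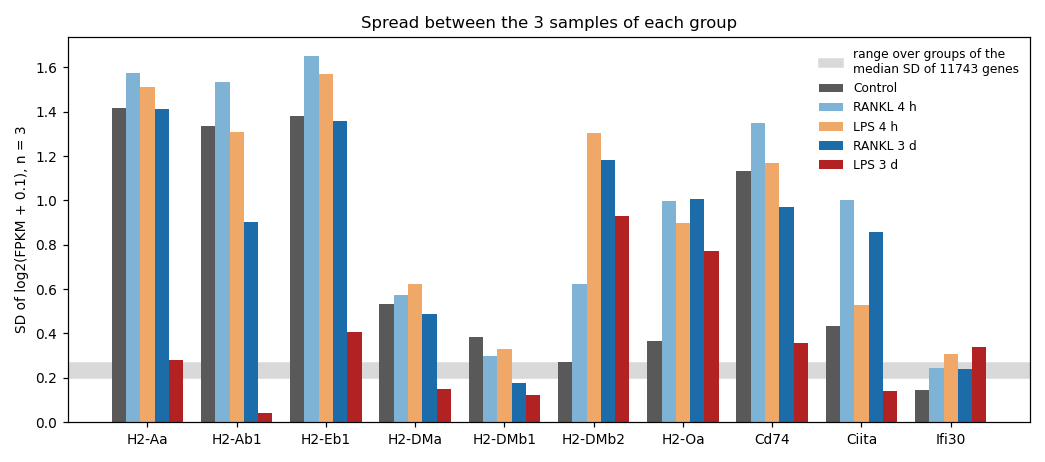
SD of log2(FPKM + 0.1) over the 3 samples of each group (vertical axis) for the 10 genes (horizontal axis), 1 bar per group. The gray band spans the medians over 11743 genes in the 5 groups. Bars of H2-Aa reach 1.57 in RANKL 4 h and 0.281 in LPS 3 d.

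The same order of replicate numbers was found at 4 h. H2-Aa had 111, 54.6 and 12.98 FPKM in RANKL 4 h and 103, 59.9 and 13.5 in LPS 4 h. Cd74 had 322, 164 and 50.7 in RANKL 4 h and 340, 182 and 68.2 in LPS 4 h. In RANKL 3 d the order was different, with replicate 2 highest, at 24.5, 73.9 and 10.4 for H2-Aa. In LPS 3 d the 3 libraries lay close, at 6.90, 6.13 and 4.68 for H2-Aa and 28.8, 28.6 and 30.1 for H2-Ab1, whose SD there was 0.0400. Deviations over 9486 genes also followed the replicate number between control, RANKL 4 h and LPS 4 h and, more weakly, between these and RANKL 3 d, but not in any pair with LPS 3 d. Differences between samples with the same number are therefore given beside group differences below. For RANKL 3 d they are less sure, since 2 of 3 samples went best with their own number over the 9486 genes. In the 10 class II genes, number 1 of RANKL 3 d had r of −0.48, −0.38 and −0.33 with number 1 of control, RANKL 4 h and LPS 4 h. Numbers 2 and 3 had r of 0.53 to 0.87. Since groups of 3 against 3 cannot give an exact two-sided permutation p below 0.1, called means a limma adjusted p under 0.05 over 11743 genes with a fold above 1.5 or below 0.66.

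After 4 h of RANKL no class II gene was called. The share of all tested genes called was 0.119%, so that few genes of any kind passed. None of the 10 passed at an unadjusted p under 0.05, nor in limma voom on fragments. Log2 fold changes ran from −0.46 for H2-Oa to 0.22 for H2-DMb2, with a median of −0.12 against 0 over all genes. The 95% intervals were wide for the classical chains, from −2.14 to 1.85 for H2-Aa. Between samples with the same number, the log2 differences of Cd74 were 0.03, −0.03 and −0.39 and those of H2-Aa −0.02, −0.08 and −0.32. Ciita had 59, 95 and 13 fragments against 59, 87 and 38 in control.

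After 4 h of LPS the classical chains and Cd74 were not called, and 2 of the 10 genes fell, H2-DMa and Ifi30. This is to be read against 39.7% of all genes called lower in this comparison. Ifi30 had 193, 211 and 141 FPKM against 313, 321 and 267 in control, with no overlap between the groups. Its log2 fold change was −0.74 ± 0.20 (SE, limma adjusted p = 0.00604). H2-DMa, the alpha subunit of DM, had 5.72, 3.86 and 2.36 against 10.4, 6.88 and 4.95, and its groups overlapped. It fell by 0.90 on the log2 scale (limma adjusted p = 0.0450), and by 0.85, 0.82 and 1.04 between samples with the same number. Its overlapping neighbor Brd2 moved the other way, with 110, 114 and 99.8 FPKM against 44.9, 44.9 and 47.5. H2-DMb1, the beta subunit, had a fold of 0.661, just outside the threshold of 0.66, with a log2 fold change of −0.60 (limma adjusted p = 0.0236) and same-number differences of −0.65, −0.60 and −0.54.

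The median of all genes was itself 0.52 lower on the log2 scale in LPS 4 h. With samples centered on their median gene, none of the 10 was called (limma), the values were −0.34 for H2-DMa and −0.17 for Ifi30, and calls over the table turned from 990 higher and 4660 lower to 1871 higher and 1529 lower. Without LPS 4 h replicate 3 no member was called, with −0.58 for H2-DMa and −0.57 for Ifi30. H2-DMa also missed the threshold without control replicate 1, at −0.63, control replicate 2, at −0.92, or LPS 4 h replicate 2, at −0.93, and, at −0.90, without RANKL 4 h replicate 2, RANKL 3 d replicate 1 or LPS 3 d replicate 1, 2 or 3. The replicate number as a block over the 5 groups gave limma adjusted p = 0.00701 for H2-DMa and 0.00858 for Ifi30. It gave 0.00144 for H2-DMb1, which stayed outside the fold threshold, and 0.114 for Ciita. With the block after centering, none of the 10 was called. H2-DMb2 and H2-Oa were lower in each pair of samples with the same number and were not called, with log2 fold changes of −0.95 and −0.53 (limma adjusted p = 0.235 and 0.469). Their fragments were 0.626 times control (exact 95% interval 0.471 to 0.827) and 0.742 times (0.564 to 0.972), for counting error only. Between samples with the same number Cd74 differed by 0.11, 0.11 and 0.04 and H2-Ab1 by 0.05, 0.23 and 0.13. Ciita had 41, 50 and 17 fragments, a ratio to control of 0.583 (exact 95% interval 0.456 to 0.744 for counting error only), and was not called with a log2 fold change of −0.59 (limma adjusted p = 0.325).

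After 3 d of RANKL only Ifi30 was called among the 10, and it rose. It stood at 380, 457 and 529.6 FPKM against 313, 321 and 267 in control, with no overlap. The log2 fold change was 0.59 ± 0.20 (limma adjusted p = 0.0386), where 16.6% of all genes were called higher. The median gene was 0.16 higher here and centering on it turned the table from 1951 higher and 886 lower to 1167 and 1428. Ifi30 was not called after centering, at 0.37 (limma adjusted p = 0.240), nor without control replicate 1, 2 or 3 or RANKL 3 d replicate 2 or 3, where its log2 fold change was 0.62, 0.64, 0.51, 0.58 and 0.48.

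H2-Oa, H2-DMa and H2-DMb1 were lower in RANKL 3 d in each pair of samples with the same number. H2-Oa, the alpha subunit of DO, had 0.634, 1.26 and 0.236 FPKM against 2.04, 2.42 and 1.43 in control, on 5 to 27 against 30 to 54 fragments, with no overlap. Its log2 fold change of −1.54 was not called (limma adjusted p = 0.0669). It was called after centering, at −1.76 (adjusted p = 0.0419), without RANKL 3 d replicate 2, at −2.02 (0.0347), and without RANKL 4 h replicate 3 (0.0462), and in the first 2 of these it was the only member called. H2-DMa had 5.05, 5.41 and 2.88 FPKM and a log2 fold change of −0.71 (limma adjusted p = 0.151). H2-DMb1 had 28.4, 25.1 and 22.2 FPKM and same-number differences of −0.53, −0.45 and −0.13, with a log2 fold change of −0.37 (adjusted p = 0.191, or 0.0391 with the replicate number as a block) and a fold of 0.774 that did not reach the threshold. With the replicate number as a block over the 5 groups, 3 members were called and 26.8% of all genes. These groups include LPS 3 d, where deviations over all genes did not follow the number. The members called were H2-Oa (limma adjusted p = 0.00571), H2-DMa (0.0413) and Ifi30 (0.0445). With the block in control and RANKL 3 d alone, a fit chosen after seeing the data, the adjusted p was 0.0134, 0.0326 and 0.0385. H2-Aa, H2-Ab1, H2-Eb1 and Cd74 were not called, with log2 fold changes of −0.83, −0.20, −0.55 and −0.44, and the replicate numbers differed in direction. Same-number differences of H2-Aa were −2.20, 0.35 and −0.64, and those of Cd74 −1.66, 0.46 and −0.12. Those of H2-Ab1 were −1.40, 0.46 and 0.35, and those of H2-Eb1 −1.83, 0.54 and −0.38. Ciita had 81, 151 and 35 fragments, with a log2 fold change of 0.38 (limma adjusted p = 0.590).

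After 3 d of LPS, 4 of the 10 genes were called, all lower, where 14.4% of all genes were called lower. They were H2-Aa, H2-Eb1, Cd74 and Ciita, and in each of them the 3 LPS 3 d libraries lay below the 3 control libraries. H2-Aa fell by 3.00 ± 0.93 on the log2 scale (SE, limma adjusted p = 0.0224), from a mean of 62.4 to 5.90 FPKM. H2-Eb1 had 4.50, 2.85 and 2.64 FPKM and fell by 2.70 ± 0.94 (adjusted p = 0.0387). Cd74, at 45.5, 34.5 and 27.7 FPKM, fell by 2.11 ± 0.74 (adjusted p = 0.0383). The fall was larger in numbers 1 and 2 than in number 3, where control was already low. For H2-Aa the differences by number were −4.02, −3.22 and −1.77. Deviations over 9486 genes did not follow the number in LPS 3 d, and whether these samples pair is not stated.

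Ciita was the gene closest to zero in LPS 3 d. It was counted with 1, 4 and 1 fragments against 59, 87 and 38 in control, a ratio of 0.0331 (exact 95% interval 0.0120 to 0.0735, counting error only). Its fitted log2 fold change of −2.07 ± 0.50 (limma adjusted p = 0.00579) understates this ratio, because the added 0.1 FPKM exceeds every LPS 3 d value. H2-Ab1 was not called. It had 28.8, 28.6 and 30.1 FPKM, which lie between control replicates 2 and 3, and a log2 fold change of −0.72 (95% interval −2.45 to 1.01, adjusted p = 0.510). H2-DMb1 had 45.2, 38.2 and 42.4 FPKM against 41.2, 34.3 and 24.3 in control and was not called, with 0.36 (adjusted p = 0.190). H2-DMa, H2-DMb2, H2-Oa and Ifi30 were not called either, with log2 fold changes of −0.13, −1.11, −0.40 and −0.05. H2-DMb2 had 0.777, 0.803 and 2.61 FPKM against 2.55, 3.34 and 2.29 in control, so that only replicate 3 lay at the control level.

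The calls of the classical chains and Cd74 in LPS 3 d rested on most of the 6 libraries compared. All 4 genes were called without control replicate 3. Only Ciita was called without control replicate 1, control replicate 2, LPS 3 d replicate 1 or LPS 3 d replicate 2, and only H2-Aa and Ciita without LPS 3 d replicate 3, although the log2 fold changes stayed between −3.12 and −2.38 for H2-Aa and between −2.29 and −1.58 for Cd74 in these fits. Limma voom on fragments called 2 of the 10, Cd74 and Ciita, with adjusted p = 0.0755 for H2-Aa and 0.112 for H2-Eb1. The median of the 10 log2 fold changes was −0.92 against 0.08 over all genes.

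**Figure D3:**
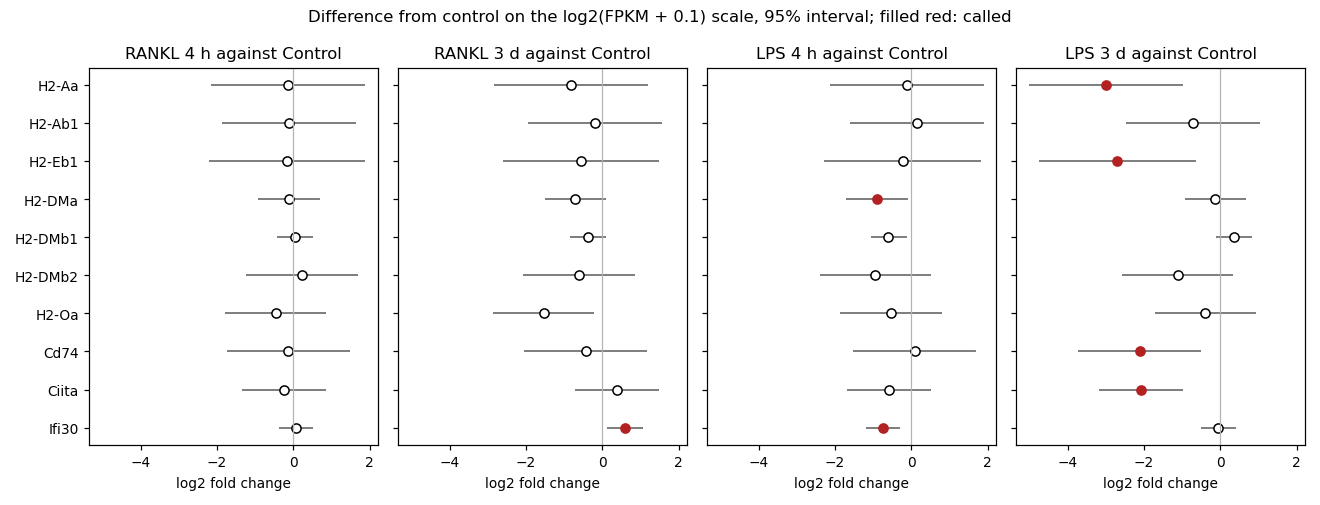
Log2 fold change against control on the log2(FPKM + 0.1) scale (horizontal axis) for the 10 genes (vertical axis), 1 panel per stimulus and time. Points are limma estimates from 3 samples against 3, lines are 95% intervals, and filled red points are called. In LPS 3 d, H2-Aa lies at −3.00 and H2-Ab1 at −0.72.

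The chains of the I-A molecule parted in LPS 3 d. The ratio of H2-Aa to H2-Ab1 within a library, chosen after the values were seen, was 1.03, 1.01 and 0.923 in control and 1.06, 0.875 and 0.959 in RANKL 4 h. It was 0.908, 0.889 and 0.697 in LPS 4 h and 0.589, 0.938 and 0.463 in RANKL 3 d. In LPS 3 d it was 0.240, 0.215 and 0.156, below each of the other 12 libraries. The exact permutation p against control was 0.1, the smallest that 3 against 3 can give, in LPS 3 d and also in LPS 4 h, whose libraries lay below control too. It was 0.7 in RANKL 4 h and 0.2 in RANKL 3 d. A ratio within a library does not depend on its scaling. It shows unequal change of the chains and not that 1 of them was unaltered.

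The other ratios differed in size. H2-Eb1 over H2-Aa stayed between 0.398 and 0.653 in all 15 libraries. Cd74 over H2-Aa was 2.79, 2.91 and 4.08 in control and 6.60, 5.63 and 5.92 in LPS 3 d, while Cd74 over H2-Ab1 went from 2.87, 2.93 and 3.76 to 1.58, 1.21 and 0.922. Across the 15 libraries, whose groups and numbers they share, Pearson's r was 0.99 between H2-Aa, H2-Eb1 and Cd74, and 0.86 between H2-Aa and H2-Ab1. H2-DMa and H2-DMb1 went together with 0.87, and H2-DMb1 did not follow H2-Aa, with −0.03. Ifi30 had no r above 0.37 with any member.

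**Figure D4:**
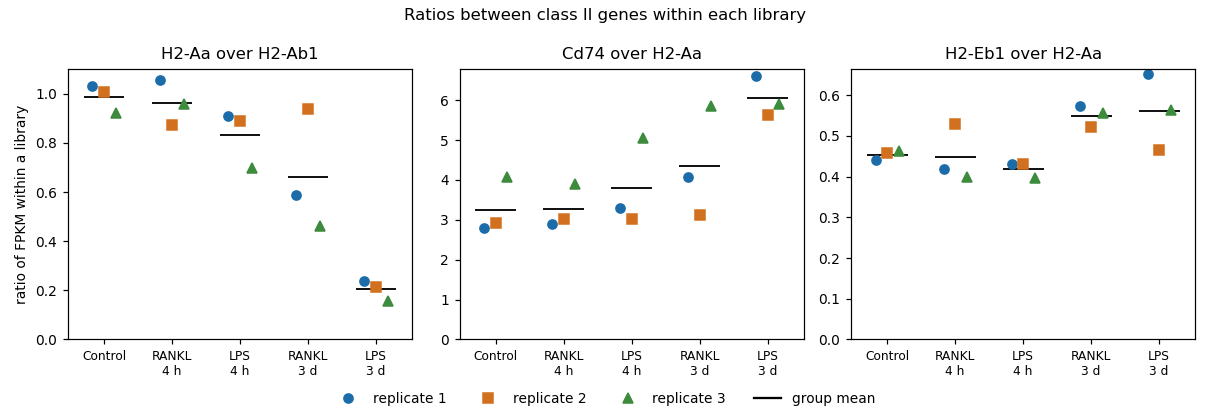
Ratios of FPKM between 2 genes within a library (vertical axis, from 0) in the 5 groups (horizontal axis). Points are samples by replicate number and bars are means of 3. H2-Aa over H2-Ab1 has a mean of 0.987 in control and 0.203 in LPS 3 d, and H2-Eb1 over H2-Aa stays between 0.398 and 0.653.

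In the direct comparison at 3 d, Ciita and Ifi30 were higher and H2-DMb1 lower with RANKL than with LPS. The 2 genes called higher compare with 23.3% of all genes called higher, and the 1 called lower with 12.8%. Ciita had 0.551, 0.980 and 0.231 FPKM against 0.00625, 0.0259 and 0.00667, a log2 difference of 2.45 ± 0.50 (limma adjusted p = 0.00127). H2-DMb1 had 28.4, 25.1 and 22.2 against 45.2, 38.2 and 42.4, with −0.73 ± 0.21 (adjusted p = 0.0109). Ifi30 had 380, 457 and 529.6 against 297, 225 and 360, with 0.64 (adjusted p = 0.0182), and was no longer called after centering, at 0.51, without RANKL 3 d replicate 3, at 0.53, or without LPS 3 d replicate 2, at 0.46. In H2-Aa, H2-Eb1 and Cd74 the RANKL 3 d libraries all lay above the LPS 3 d libraries, but none was called, with log2 differences of 2.17, 2.14 and 1.67 (limma adjusted p = 0.0707, 0.0782 and 0.0790). In a fit of only these 2 groups all 3 were called higher (adjusted p = 0.0311, 0.0317 and 0.0251), as were 20.8% of all genes, and Ifi30 was not (0.0510).

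At 4 h, H2-DMb1 and Ifi30 were higher with RANKL than with LPS, where 41.0% of all genes were called higher. H2-DMb1 had 40.5, 34.8 and 26.9 FPKM against 26.2, 22.5 and 16.7, and Ifi30 335, 357 and 259 against 193, 211 and 141. The log2 differences were 0.65 and 0.81 (limma adjusted p = 0.0156 and 0.00335). Centered on the median gene, which differed by 0.53, they were 0.08 and 0.24, and neither was called. H2-DMb1 was also not called without RANKL 4 h replicate 1, at 0.51, or LPS 4 h replicate 3, at 0.47. With the replicate number as a block and only these groups, a fit chosen after seeing the data, 4 members and 45.0% of all genes were called higher, H2-DMa (adjusted p = 0.000626) and H2-DMb2 (0.0117) being the others. With the block after centering, 0 members were called (limma).

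Between 4 h and 3 d of RANKL no member was called, where 23.3% of all genes were called. At an unadjusted p under 0.05 there was 1 member, Ifi30, with a fold of 1.44 below the threshold (limma adjusted p = 0.0647), and limma voom called none. With the replicate number as a block over the 5 groups H2-Oa was called lower, with −1.08 (adjusted p = 0.0350), as were 7.62% of all genes. Between 4 h and 3 d of LPS 6 of the 10 members were called, where 58.1% of all genes were called. H2-Aa, H2-Eb1, Cd74 and Ciita were lower at 3 d, where 13.9% of all genes were called lower, by 2.88, 2.47, 2.20 and 1.48 on the log2 scale. H2-DMb1 and Ifi30 were higher at 3 d, by 0.96 and 0.69, where 44.2% of all genes were called higher and the median gene was 0.52 higher. Centered on the median gene, these 2 were not called, with 0.31 and 0.04, and the 4 lower genes were. Without LPS 4 h replicate 1 none of the 4 lower genes was called, with −2.27, −1.83, −1.66 and −1.37 for H2-Aa, H2-Eb1, Cd74 and Ciita. Without LPS 3 d replicate 3, H2-Eb1, Cd74 and Ifi30 were not called, at −2.32, −2.02 and 0.53. H2-Eb1 and Ciita were not called without LPS 4 h replicate 2, at −2.22 and −1.29, H2-Eb1 was not without LPS 3 d replicate 2, at −2.38, and Ifi30 was not without LPS 4 h replicate 3, at 0.52.

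Of the other class II genes, H2-Ob, the beta subunit of DO, fell in LPS 3 d. It had 0.0408, 0.0140 and 0.290 FPKM against 0.727, 0.719 and 0.636 in control, a log2 fold change of −2.11 (limma adjusted p = 0.00838). H2-Eb2 was listed at 0 in the 3 LPS 3 d libraries and at 0.0861 to 0.139 FPKM in control. H2-Ea-ps, the pseudogene of the I-E alpha chain, was listed at 0 in 14 of 15 libraries.

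Of 7 genes for RFX, NF-Y and CREB, which bind class II promoters, 1 rose and 2 fell in LPS 4 h and 1 rose in RANKL 3 d. Of all genes, 39.7% were called lower in LPS 4 h and 16.6% higher in RANKL 3 d. The counts are not read as a result about the 7 genes. None of them was called in RANKL 4 h or in LPS 3 d, where H2-Aa, H2-Eb1, Cd74 and Ciita fell. In LPS 4 h Rfx5 rose, with 3.25, 3.44 and 2.71 FPKM against 1.61, 1.87 and 1.54 in control (log2 fold change 0.86, limma adjusted p = 0.000686). Rfxank and Rfxap, the other RFX subunits, fell there by 1.09 and 1.03 on the log2 scale (limma adjusted p = 0.00119 and 0.000120), where the median gene was 0.52 lower. Rfx5 also rose in RANKL 3 d, by 0.77.

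Genes that act upstream of Ciita were called in both directions. Of 12 tested, none was called in RANKL 4 h, and 4 rose and 1 fell in LPS 4 h. There the median gene was 0.52 lower and 39.7% of all genes were called lower. Irf1, a factor that activates Ciita under interferon gamma, stood at 359, 312 and 232 FPKM against 57.4, 35.1 and 25.1, and the kinase Jak2, the inhibitor Socs1 and the repressor Prdm1 rose by 2.77, 4.30 and 2.33 on the log2 scale. Ifngr1, a chain of the interferon gamma receptor, fell there by 1.02. In RANKL 3 d, where 16.6% of all genes were called higher, Prdm1 and Ifngr1 rose, by 2.50 and 0.88. Irf4, Irf8 and Socs1 fell there by 1.47, 0.97 and 2.30. In LPS 3 d Irf4 alone was called, at 0.392, 0.406 and 0.513 FPKM against 1.71, 1.78 and 2.09 (log2 fold change −1.87, limma adjusted p = 0.00123). All 7 tested interferon gamma targets outside the class II pathway, Socs1 among them, rose in LPS 4 h, among them Cxcl9 by 2.65 and Gbp2 by 3.14, while none was called in LPS 3 d.

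Of 6 proteases that process antigen or the invariant chain, 3 fell in RANKL 3 d. Lgmn, which encodes legumain, had 850, 784 and 578 FPKM against 1675, 1804 and 1419 (log2 fold change −1.16, limma adjusted p = 0.000255), and Ctsl and Ctsb fell by 0.79 and 0.62. Ctss, the main protease of the invariant chain in antigen-presenting cells, was not called against control and stood between 2186 and 5560 FPKM in all libraries. It had 3472, 2913 and 2186 FPKM in RANKL 3 d against 5406, 3719 and 3748 in control, with no overlap. Only Ctsd fell in LPS 4 h, by 0.77, and no protease was called in LPS 3 d or RANKL 4 h. In LPS 4 h the ubiquitin ligase March1, which removes class II from the surface, rose by 1.07 on the log2 scale, and Cd83, which opposes it, rose by 2.86. March8 fell there by 1.09.

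Neighbors in the same region of chromosome 17 did not fall with H2-Aa and H2-Eb1 in LPS 3 d. In LPS 4 h, where 39.7% of all genes were called lower, 1 of 8 neighbors rose and 3 fell. In RANKL 3 d, where 16.6% of all genes were called higher, 1 rose and 1 fell. Brd2 alone was called in LPS 3 d and rose, with 136, 116 and 44.9 FPKM against 44.9, 44.9 and 47.5 (log2 fold change 0.96, limma adjusted p = 0.0172). Its value in replicate 3 lay at the control level. The peptide transporter genes Tap1 and Tap2, which serve MHC class I, were not called in any comparison with control.

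Markers of other cells that carry class II molecules were measured beside these results. Of 8 tested B cell genes, 7 fell in LPS 3 d and 6 in RANKL 3 d. The sum over 10 B cell genes was 18.5 to 23.7 FPKM in control, 5.54 to 8.95 in RANKL 3 d and 1.004 to 2.79 in LPS 3 d, and it was 3.22 to 13.8 in LPS 4 h and 5.99 to 20.02 in RANKL 4 h. Cd79a had 6.21, 5.41 and 4.11 FPKM in control, 0.231, 0.367 and 0.0373 in RANKL 3 d and 0.0708, 0.0732 and 0.113 in LPS 3 d.

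Of 9 tested dendritic cell genes, 5 fell in LPS 3 d, namely Flt3, Itgax, Siglech, Batf3 and Dpp4, and 3 in RANKL 3 d. The sum over the 10 dendritic cell genes in the table was 62.1, 42.3 and 27.4 FPKM in control replicates 1, 2 and 3, the order in which H2-Aa stood there. It was 51.2, 46.3 and 20.9 in RANKL 3 d and 14.97, 15.3 and 17.04 in LPS 3 d. Siglech was listed at 0 in the 3 LPS 3 d libraries and had 3.43, 3.82 and 1.19 FPKM in control. Itgax, which macrophages also express, had 15.1, 8.07 and 9.98 in control and 3.31, 2.39 and 1.88 in LPS 3 d. Neutrophil and stromal genes moved as well. All 8 neutrophil genes fell in LPS 3 d and 5 fell in RANKL 3 d, and their sum was 119, 143 and 1115 FPKM in LPS 3 d and 999 to 4150 in RANKL 3 d. Of 8 stromal genes, 5 rose in RANKL 3 d, and their sum was 1729, 797 and 374 FPKM there, highest in replicate 1, against 135 to 297 in control. The part of B cells, dendritic cells, neutrophils and stromal cells in the class II values was not tested.

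The genes outside the pathway whose levels went most like the mean of H2-Aa, H2-Ab1, H2-Eb1 and Cd74 over the 15 libraries were Cacnb3, Egfl7, Esam, Klk1 and Psmb2, out of 9477 searched. Their Pearson's r was 0.912 for Cacnb3 and 0.845 to 0.853 for the others. Cacnb3 had a mean of 3.18 FPKM in control and 0.971 in LPS 3 d. For Ciita they were Gatm (0.915), Mgl2 (0.897), Snrpd1 (0.890), Ibsp (0.889) and Dek (0.887). Mgl2, a lectin of macrophages and dendritic cells, had a mean of 3.92 FPKM in control and 0.106 in LPS 3 d. These values describe libraries that share groups and replicate numbers.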

How the data were processed

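Total RNA of BMDMs in 5 groups of 3 samples was sequenced from SMARTer mRNA libraries. The authors deposited FPKM per gene, made with StringTie on GRCm38 per the labels, and the aligner is not given in the sources used here. The table held 20089 complete genes and 1 incomplete last entry, and later genes were not analysed here. Whole fragments were recovered from the FPKM steps for 14485 of 14485 genes above 0 in at least 3 samples, within 0.01 fragments, for depth (18306184 to 20330207 per sample), counting intervals and limma voom. Counting intervals cover counting error only.

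Genes whose FPKM averaged 0.1 or more over the samples (11743) were kept, and their log2(FPKM + 0.1) was fitted in limma 3.58.1 (R 4.3.3) over the 5 groups with a trend and no covariate, and p-values were adjusted by Benjamini-Hochberg over these genes. A call needed an adjusted p under 0.05 and a fold above 1.5 or below 0.66. A fold change on this scale understates that of low genes. The fit was tested on simulated data. All 10 genes were named in each comparison. Other genes came from lists by role, or had the highest Pearson's r over the 15 samples. The genes and lists were chosen with earlier results of these data known. Alternatives were other pseudocounts, filters, scalings and fits, each sample left out, and the replicate number as a block. Labels number the samples of each group 1 to 3, and pairing was checked by correlating deviations from group means of same-numbered samples over 9486 genes. All 3 correlations were over 0.1 between control, RANKL 4 h, LPS 4 h and RANKL 3 d (0.44 to 0.84 between control and the 4 h groups), and not in pairs with LPS 3 d. Promoters were from RefSeq GRCm38.p6 and gene positions from GENCODE M21.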

Additional observations from a re-analysis of the deposited data

Results flagged for a closer look

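For 6 of the 10 genes LPS 3 d differed from LPS 4 h, by the direct limma contrast of the LPS groups. This contrast equals the difference of their 2 contrasts with control, since both use the same controls. With 1 control group of unstated time in culture, duration of LPS and time in culture cannot be told apart. The log2 difference, 3 d minus 4 h, was −2.88 for H2-Aa, −2.47 for H2-Eb1, −2.20 for Cd74 and −1.48 for Ciita. It was 0.96 for H2-DMb1 and 0.69 for Ifi30. These 6 of 10 are near the 58.1% of all genes called in this contrast. H2-DMb1 and Ifi30 lost the call when samples were centered on their median gene, and without LPS 4 h replicate 1 the other 4 lost it (limma adjusted p = 0.0661, 0.136, 0.0824 and 0.0532). A test for an outlying sample within a group needs more than 3 samples and was not run.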

How the results depend on the processing

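Of 2312 alternative values for the 10 genes in the 8 comparisons, 2181 kept their side of the threshold, 75 lost a call and 56 gained one. Of the 2181, 80 changed sign and were called under neither fit, and 0 called values reversed. Counts of members called that moved by over 1.5 times are given here. For RANKL 3 d against control (1 called) they were 0 without a filter, 2 by unadjusted p, 3 with the replicate block over 5 groups and with only the 2 groups compared, and 2 with the block after centering on the median gene. After centering alone, and without RANKL 3 d replicate 2, the count stayed at 1 but the gene was H2-Oa lower in place of Ifi30 higher. For LPS 4 h against control (2) they were 1 without a filter, with only the 2 groups and without a trend, and 0 after centering, with or without the block. For LPS 3 d against control (4) they were 2 without a filter and 2 in limma voom. For RANKL 4 h against LPS 4 h (2) they were 0 after centering, with or without the block, and 4 with the block in only the 2 groups. For RANKL 3 d against LPS 3 d (3) they were 5 with only the 2 groups (H2-Aa, H2-Eb1 and Cd74 gained, Ifi30 lost), 6 by unadjusted p, 7 with the block over 5 groups, 5 with it in only the 2 groups and 6 with it after centering. For RANKL 3 d against RANKL 4 h (0) they were 1 after rescaling to equal sums, 1 with the block over 5 groups, 2 with it in only the 2 groups and 3 with it after centering. The cause was not tested. Of all genes, 26.8% were called with the block over 5 groups for RANKL 3 d against control. With only the 2 groups, 20.8% were called higher between the 3 d groups. An unadjusted p under 0.05 (limma), without the fold threshold, was met by 6201 of 11743 genes between the 3 d groups and by 5017 for RANKL 3 d against control. Shares for the other fits are not all given, so these counts are not a result about the members. In pairs with LPS 3 d, deviations over 9486 genes did not follow the number. The block in only the 2 groups and the block after centering were chosen after seeing the data, as were the ratios. Leaving out 1 sample gave 0 to 2 called for RANKL 3 d, 0 to 3 for LPS 4 h and 1 to 4 for LPS 3 d against control, 1 to 3 between the 4 h groups, 2 to 5 between the 3 d groups, 0 to 1 between the RANKL times and 3 to 6 between the LPS times. RANKL 4 h against control had 0 in every alternative. With a pseudocount of 1, Ciita was not called in LPS 3 d, at −0.45, since its values are far below 1 FPKM. Over all genes, RANKL 4 h against control had 14 calls, 0 with only the 2 groups, 24 with the block over 5 groups, 301 by unadjusted p and 306 with the block in only the 2 groups. LPS 4 h had 5650 against control and 3400 after centering (3551 with the block), and RANKL 4 h against LPS 4 h had 5872, 3485 and 3632. Centering turned higher and lower calls from 1522 and 1690 to 1212 and 1887 for LPS 3 d against control, from 5186 and 1631 to 2209 and 3224 between the LPS times, and from 2739 and 1506 to 2237 and 2045 between the 3 d groups. H2-DMb2, H2-Oa and Ciita rested on few fragments, where counting error is large.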
